A study of Arabidopsis thaliana with 4 samples.

Results

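The 10 loci described here encode regulators of ovule primordia and integuments, and they were chosen by function and by locus identifier out of the 27206 loci in the deposited expression values. They are *ANT* (AT4G37750), *BEL1* (AT5G41410), *ATS/KAN4* (AT5G42630), *SPL/NZZ* (AT4G27330), *WUS* (AT2G17950), *SUP* (AT3G23130), *TSO1* (AT3G22780), *CUC1* (AT3G15170), *CUC2* (AT5G53950) and *CUC3* (AT1G76420). The study compared homozygous *stk* mutant plants with wild-type plants, both of the Columbia strain, by RNA-Seq of inflorescences and siliques up to 5 days after pollination, with 2 libraries of each genotype described as biological replicates. The mutant allele, *stk-2*, is a small insertion near a splice site of the third intron of *STK*, which encodes a MADS-domain transcription factor of ovules. The labels give growth under short or long days for both genotypes without naming the day length of a library.

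An Arabidopsis ovule starts as a finger-like primordium on the placenta. Its tip, the nucellus, forms the megaspore mother cell, its middle zone, the chalaza, gives rise to the inner and outer integuments, and its base becomes the funiculus. The integuments later become the seed coat. The genes described here act early: the NAC-domain proteins CUC1, CUC2 and CUC3 mark boundaries between organs and primordia, ANT promotes primordium and integument growth, SPL and WUS act in or from the nucellus, and BEL1, KAN4, SUP and TSO1 shape the integuments.

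All 10 loci were detected in all 4 libraries. None of them passed the test for a genotype difference, but neither did any of the 19044 loci tested, *STK* included. Each of the 10 loci had a slightly lower mean in *stk* than in wild type, by 0.01 to 0.40 on the log2 scale, and each 95% interval included 0. *ANT*, *TSO1* and *BEL1* were lower in both *stk* libraries than in both wild-type libraries, as were 26.8% of all loci tested, and the other 7 overlapped between genotypes. Wild type replicate 1 was the highest library for 8 of the 10 loci, against 44.1% of all loci tested, and without it 5 loci had a lower and 5 a higher mean in *stk*.

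Among the 10 loci, *CUC1* and *CUC2* carry a sequence that a microRNA recognises, and it is shown here because it sets them apart from *CUC3* in sequence and because the expression of all 3 is compared below. miR164 is known to guide cleavage of both transcripts. The mature sequences were read from the reference (RefSeq, TAIR10.1) at chr2:19520770-19520790, chr5:287586-287606 and chr5:9852684-9852704, all on the plus strand. Capitals mark the seed, bases 2 to 8. miR164a and miR164b are identical, and miR164c has the same seed.
ath-miR164a: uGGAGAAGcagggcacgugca
ath-miR164b: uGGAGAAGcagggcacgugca
ath-miR164c: uGGAGAAGcagggcacgugcg

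The complementary site of 21 bases lies in the coding sequence of the last exon in *CUC1* (chr3:5111137-5111157, plus strand) and in *CUC2* (chr5:21902301-21902321, minus strand). It begins at coding base 635 of *CUC1* and at coding base 773 of *CUC2*. Capitals mark the bases opposite the seed.
CUC1 site: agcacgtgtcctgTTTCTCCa
CUC2 site: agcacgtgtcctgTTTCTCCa

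Both sites have the same 21 bases, of which 18 are complementary to the closest miR164 sequence. The closest stretch of *CUC3* coding sequence had 8 mismatches, and that of the other 7 loci had 7 to 10. With at most 4 mismatches allowed, such a site was found in 11 of 27444 loci with coding sequence, namely *CUC1*, *CUC2* and 9 others. A search by letters only describes the sequence. The miR164 precursors were not analysed here.

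Before the values, the labels were checked on *STK* (AT4G09960) itself. Its gene models together had 7.91 and 7.96 RPKM in the *stk* libraries, against 38.7 and 40.9 RPKM in the wild-type libraries (log2 fold change -2.19, standard error 0.13, unadjusted p = 5.8e-06 and Benjamini-Hochberg adjusted p = 0.0884, limma). RPKM stands for reads scaled to exon length in kilobases and to the mapped reads of the library. The libraries held 30564186 and 33673018 reads in *stk*, against 16965995 and 21075041 reads in wild type, as recovered from the spacing of the RPKM values. Markers of flower organs (4 of 4), of carpel, ovule and seed coat (5 of 5), of tapetum (3 of 4) and of pollen (3 of 5) had means of at least 1 RPKM. Of the embryo markers, 0 of 3 did, and *LEC1* had 0.0699 and 0.349 RPKM in *stk* and 1.008 and 0.659 RPKM in wild type. The marker loci with an unadjusted p of at most 0.05 were *STK*, *BAN* (77.4 and 89.8 RPKM in *stk*, 36.9 and 39.8 RPKM in wild type), *SEP3*, *AMS* and *PHE1*. For *SHP2*, *AP1*, *PI*, *MS1*, *A9*, *VGD1*, *HTR10*, *PPME1*, *AGL62* and *FWA*, next in their lists, it lay between 0.0618 and 0.907 (limma). The 3 endosperm markers tested, of 5 listed, were higher in both *stk* libraries than in both wild-type libraries, as were 16.3% of all loci tested. Summed over the 5 endosperm markers, the level was 10.4 and 10.2 RPKM in *stk* and 4.77 and 7.76 RPKM in wild type, and its part in the results below was not tested. In mixed tissue, fewer cells that express a gene and less RNA per cell cannot be told apart.

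The level of each locus in each library is plotted on a log scale. RPKM accounts for exon length, so levels can be set side by side between genes, though a length trend remained between libraries. For the 3801 tested loci with the shortest exon length, the median deviation from their own mean was 0.34 (log2) in *stk* replicate 1. It was -0.13 in *stk* replicate 2, and -0.08 and -0.15 in the wild-type libraries.

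**Figure D1:**
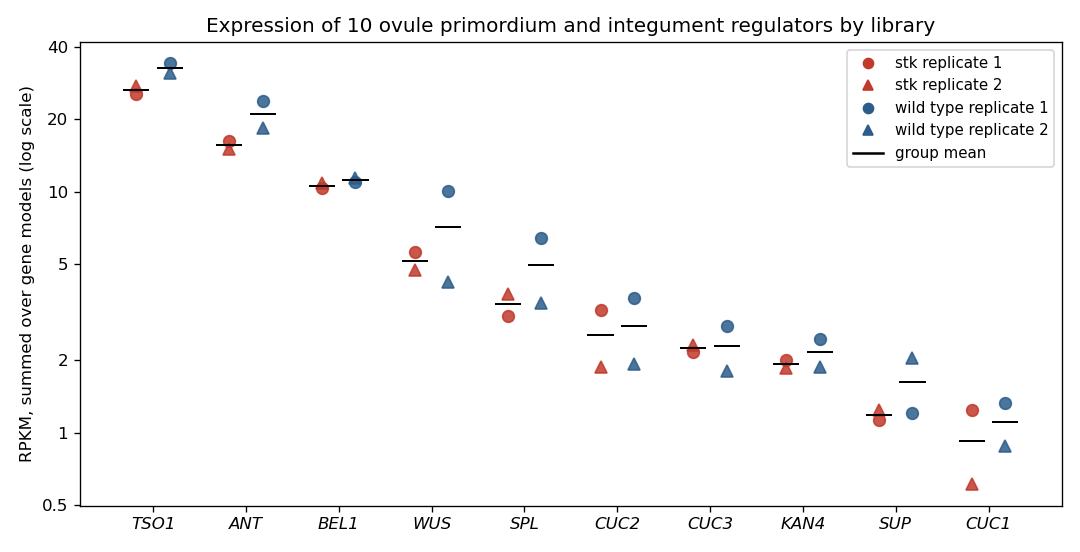
RPKM (log scale) of the 10 loci, ordered by mean level, in stk libraries (red, left) and wild-type libraries (blue, right). Circles are replicate 1, triangles replicate 2 and bars group means. TSO1, ANT and BEL1 have higher wild-type points than stk points throughout, while the other loci overlap between genotypes.

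Over the 4 libraries, *TSO1* had the highest mean level (29.6 RPKM), followed by *ANT* (18.4), *BEL1* (10.9), *WUS* (6.16), *SPL* (4.19), *CUC2* (2.66), *CUC3* (2.26), *KAN4* (2.04), *SUP* (1.41) and *CUC1* (1.02). The ranges of *TSO1*, *ANT*, *BEL1* and *WUS* over the libraries did not overlap with those of their neighbours in this order, except that *WUS* (4.24 to 10.05 RPKM) overlapped with *SPL* (3.06 to 6.44 RPKM). From *SPL* downwards, each locus overlapped with the next. Among the loci tested, *TSO1* lay at the percentile 79.2 and *CUC1* at 0.147, and 6 of the 10 loci stayed under 10 RPKM in every library, as *WUS* did in all but 1. *CUC1* thus stood just above the lower limit for testing, a mean of 1 RPKM.

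Of the genes for growth of the primordium and integuments, *ANT* showed the largest difference. *ANT*, an AP2-type transcription factor (chr4:17739514-17742401, plus strand, 8 exons), had 16.3 and 15.0 RPKM in *stk* libraries, against 23.8 and 18.4 RPKM in wild-type libraries. Both *stk* values lay below both wild-type values, but the wild-type libraries were themselves farther apart than the nearest *stk* and wild-type libraries. The log2 fold change was -0.40 (standard error 0.17, 95% interval -0.82 to 0.03), with an unadjusted p of 0.0626 and an adjusted p of 0.565 from limma. With the trend over exon length removed, it was -0.31. The reads behind these values numbered 1072 and 1086 in *stk* and 868 and 833 in wild type, so counting error was small: pooled by genotype, the ratio of library-scaled reads of *stk* to wild type was 0.751 with an exact 95% interval of 0.705 to 0.801. This interval covers counting error only and takes no account of the difference between replicates. Such intervals were computed for the 10 loci only. They excluded 1 for 5 of these, among them *WUS* (0.651 to 0.877) and *SPL* (0.601 to 0.857), whose wild-type libraries disagreed.

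*TSO1*, a CXC-domain protein required for ordered cell division in floral meristems and ovules (chr3:8048802-8052260, plus strand, 10 exons), had 25.6 and 27.5 RPKM in *stk* libraries, against 34.1 and 31.2 RPKM in wild-type libraries. The genotypes did not overlap here either. Its log2 fold change of -0.29 had a standard error of 0.14 and a 95% interval of -0.64 to 0.06 (limma, unadjusted p = 0.0859, adjusted p = 0.586). Its reads, 1886 and 2238 in *stk* and 1399 and 1587 in wild type, gave a pooled ratio of 0.818 with a counting interval of 0.780 to 0.858. With the trend over exon length removed, the log2 fold change was -0.18.

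*BEL1*, the homeodomain protein that gives the integuments their identity (chr5:16580044-16584008, plus strand, 4 exons), had the closest replicates of the 10 loci in both genotypes. It had 10.4 and 10.9 RPKM in *stk* libraries, against 11.0 and 11.5 RPKM in wild-type libraries. These values do not overlap, yet the gap between the nearest libraries was smaller than that between the replicates of either genotype. Its log2 fold change of -0.07 had a standard error of 0.13 and a 95% interval of -0.40 to 0.26 (limma, adjusted p = 0.887), and it turned to 0.036 with the trend over exon length removed. Of the 19043 other loci tested, those with the most similar pattern over the 4 libraries were AT5G38850, AT1G24560 and *FH6* (AT5G67470), at Euclidean distances of 0.0023, 0.0075 and 0.010 between centred log2(RPKM + 1) values. Such a likeness over 4 libraries is weak, as 709 loci lay within a distance of 0.1.

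In the nucellus group, the wild-type libraries disagreed. *WUS*, the homeodomain protein that acts from the nucellus on integument initiation (chr2:7808871-7810795, minus strand, 3 exons), had 5.63 and 4.72 RPKM in *stk* libraries, against 10.05 and 4.24 RPKM in wild-type libraries. Both *stk* values lay between the wild-type values. Its log2 fold change was -0.30, with a standard error of 0.35 and a 95% interval of -1.18 to 0.58 (limma, adjusted p = 0.799). Wild type replicate 1 exceeded wild type replicate 2 by a ratio of 2.37, with an exact 95% counting interval of 1.87 to 3.01 from 210 and 110 reads, whereas the *stk* replicates had a ratio of 1.19 (0.977 to 1.45). Of all loci tested, 99.4% had a smaller log2 difference between the wild-type libraries than *WUS*.

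*SPL*, required for sporocyte formation and ovule patterning (chr4:13682078-13683538, minus strand, 3 exons), had 3.06 and 3.78 RPKM in *stk* libraries, against 6.44 and 3.47 RPKM in wild-type libraries. As for *WUS*, wild type replicate 1 stood above the other 3 libraries, which were close to one another. Its log2 fold change was -0.39, with a standard error of 0.27 and a 95% interval of -1.05 to 0.27 (limma, adjusted p = 0.683). Without wild type replicate 1 it was -0.02 for *SPL* and 0.23 for *WUS*.

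Of the remaining integument genes, *KAN4*, a KANADI protein needed for the inner integument and its separation from the outer one (chr5:17073779-17075856, minus strand, 6 exons), had 2.01 and 1.85 RPKM in *stk* libraries, against 2.44 and 1.87 RPKM in wild-type libraries. The genotypes overlapped, with *stk* replicate 1 above wild type replicate 2 (log2 fold change -0.10, standard error 0.15, adjusted p = 0.849 from limma). *KAN4* was the only one of the 10 loci with more than 1 gene model. Its shorter model was listed at 0 in replicate 1 of both genotypes, and at 0.239 RPKM in *stk* replicate 2 and 0.273 RPKM in wild type replicate 2.

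*SUP*, a zinc-finger protein that limits stamen formation and outer integument growth (chr3:8242302-8243372, plus strand, 1 exon), had 1.13 and 1.25 RPKM in *stk* libraries, against 1.21 and 2.04 RPKM in wild-type libraries. It differed from most of the others in that wild type replicate 2 was its highest library. The log2 fold change of -0.24 (standard error 0.19; limma, adjusted p = 0.722) rested on 82 reads in *stk* and 68 in wild type.

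The 3 boundary genes were weakly expressed, and their genotypes could not be separated. *CUC1* (chr3:5109883-5111447, plus strand, 3 exons) had 1.24 and 0.610 RPKM in *stk* libraries, against 1.33 and 0.877 RPKM in wild-type libraries. *CUC2* (chr5:21901966-21903823, minus strand, 3 exons) had 3.23 and 1.88 RPKM in *stk* libraries, against 3.62 and 1.93 RPKM in wild-type libraries. *CUC3* (chr1:28672029-28673934, minus strand, 3 exons) had 2.16 and 2.31 RPKM in *stk* libraries, against 2.78 and 1.81 RPKM in wild-type libraries. For all 3 genes the genotypes overlapped.

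Their log2 fold changes were -0.14 for *CUC1* (standard error 0.21), -0.08 for *CUC2* (standard error 0.29) and -0.01 for *CUC3* (standard error 0.18), with adjusted p of 0.856, 0.948 and 0.991 from limma. *CUC1* and *CUC2* were both lower in replicate 2 than in replicate 1 of each genotype, and so were *ANT*, *WUS* and *KAN4*, which lack a miR164 site. A part of the site in this pattern was not tested. For *CUC2* the ratio of replicate 1 to replicate 2 was 1.72 in *stk* (exact 95% counting interval 1.27 to 2.34) and 1.88 in wild type (1.28 to 2.77). For *CUC1* it was 2.04 in *stk* (1.15 to 3.71) and 1.52 in wild type (0.777 to 3.003). *CUC3* had a ratio of 0.935 in *stk* (0.675 to 1.29) and 1.54 in wild type (1.004 to 2.37). With 57 reads in *stk* and 40 in wild type, the pooled ratio of *CUC1* was 0.844 with a counting interval of 0.553 to 1.30. This interval includes 1, so a difference of this size could not be told from counting error at this depth. No 50-base stretch of the exons of the 10 loci, *CUC* genes included, occurred again exactly in the 5 nuclear chromosomes of the reference, so reads without mismatches have 1 place. In the deposited values, no gene model of the 10 loci overlapped in position with one of another locus.

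The genotype differences are plotted with their errors.

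**Figure D2:**
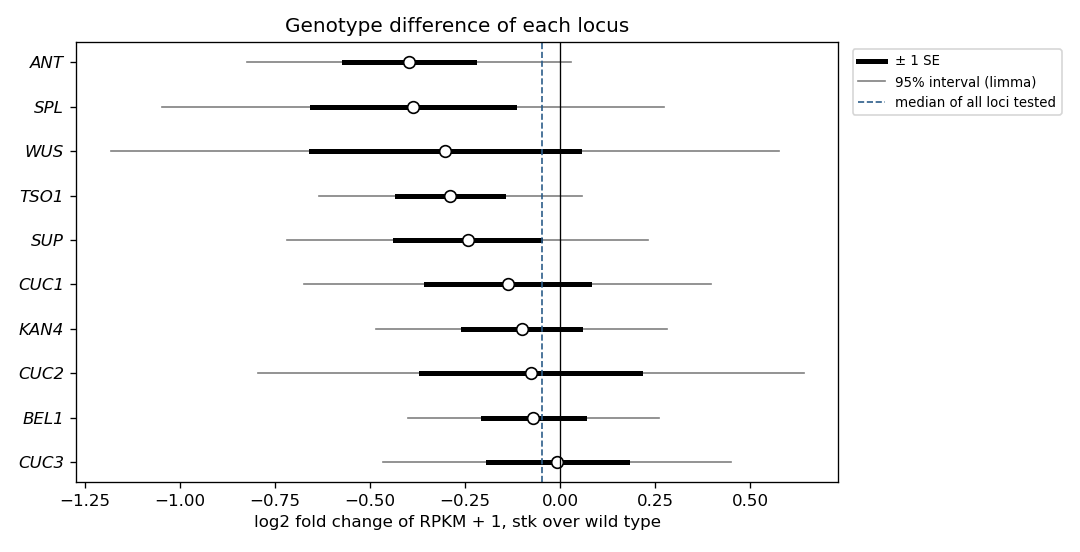
Log2 fold change of RPKM + 1, stk over wild type (horizontal), for the 10 loci, with thick bars of 1 standard error, thin 95% intervals from limma and the median of all loci tested as a dashed line. All points lie left of 0, from -0.40 for ANT to -0.01 for CUC3, and each thin interval includes 0.

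With limma on log2(RPKM + 1), 0 of the 10 loci had an adjusted p under 0.05 (Benjamini-Hochberg over all loci tested), as against 0% of the 19044 loci tested. Before adjustment, p was at most 0.05 for 0 of the 10 loci, against 1749 loci or 9.18% of all loci tested. Adding the study's requirement of a 2-fold ratio between group means left 0 of the 10 loci, against 3.42% of all loci. By Baggerley's weighted test, the one named in the study's methods, the unadjusted p was above 0.05 for each of the 10 loci. The test was run here with RPKM in place of read numbers, so weakly expressed loci could hardly pass it. That test gave 462 loci at or below 0.05 in all, 67 of them with an adjusted p under 0.05. For a single locus, an exact two-sided permutation of 2 against 2 libraries cannot go below p = 0.3333.

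The shared direction was read against all loci. The mean was lower in *stk* for 10 of the 10 loci, against 59.8% of all loci tested, and the median log2 fold change was -0.19, against -0.05 over all loci. Groups did not overlap, with *stk* lower, for 3 of the 10 loci against 26.8% of all loci, and with *stk* higher for 0 of the 10 loci against 16.3%. The 3 without overlap, *TSO1*, *ANT* and *BEL1*, had the longest exon lengths of the 10 loci (2415, 2148 and 2454 bases). Wild type replicate 1 was the highest of the 4 libraries for 8 of the 10 loci, against 44.1% of all loci.

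The share in that library was examined further. The median deviation of the 10 loci from their own mean was -0.06 and -0.09 (log2) in the *stk* libraries, against 0.22 in wild type replicate 1 and -0.08 in wild type replicate 2. Over all loci tested the same deviation was 0.04 and -0.09 in *stk*, against 0.07 and -0.04 in wild type. The 2 wild-type libraries differed by a median of 0.39 (log2, absolute) over the 10 loci, compared with 0.18 over all loci, and the 2 *stk* libraries by 0.11, compared with 0.16. Beyond counting error, the replicates differed for 3 of the 10 loci in *stk* and for 6 in wild type, with the main model taken for *KAN4*. These intervals were computed for the 10 loci only, so no share over all loci can be set beside the counts.

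**Figure D3:**
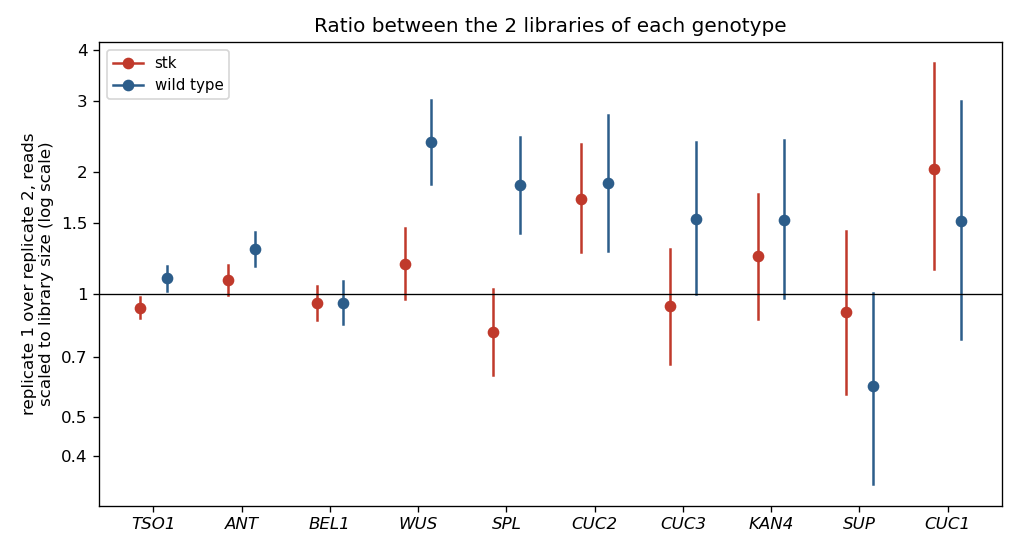
Ratio of replicate 1 to replicate 2 in reads scaled to library size (log scale) for each locus, in stk (red, left) and wild type (blue, right), with exact 95% intervals that cover counting error only. In wild type the ratio reaches 2.37 for WUS and 1.86 for SPL, while CUC2 is above 1 in both genotypes and BEL1 near 1 in both.

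With each library left out in turn, *ANT* kept a lower mean in *stk* (log2 fold change -0.58 to -0.22), as did *TSO1* (-0.35 to -0.23), *BEL1* (-0.10 to -0.04), *SPL* (-0.76 to -0.02) and *SUP* (-0.47 to -0.01). The sign turned for *WUS* (-0.84 to 0.23), *CUC2* (-0.41 to 0.25), *CUC3* (-0.22 to 0.21), *CUC1* (-0.38 to 0.10) and *KAN4* (-0.23 to 0.03). The median over the 10 loci lay between -0.32 without wild type replicate 2 and -0.001 without wild type replicate 1. Over all loci tested, the median was -0.10 and 0.015 with these libraries left out. In the column headers, *stk* replicate 1 carries another lane tag than the other 3 libraries. Without it, 9 of the 10 loci had a lower mean in *stk*, with a median of -0.25, against -0.11 over all loci tested.

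**Figure D4:**
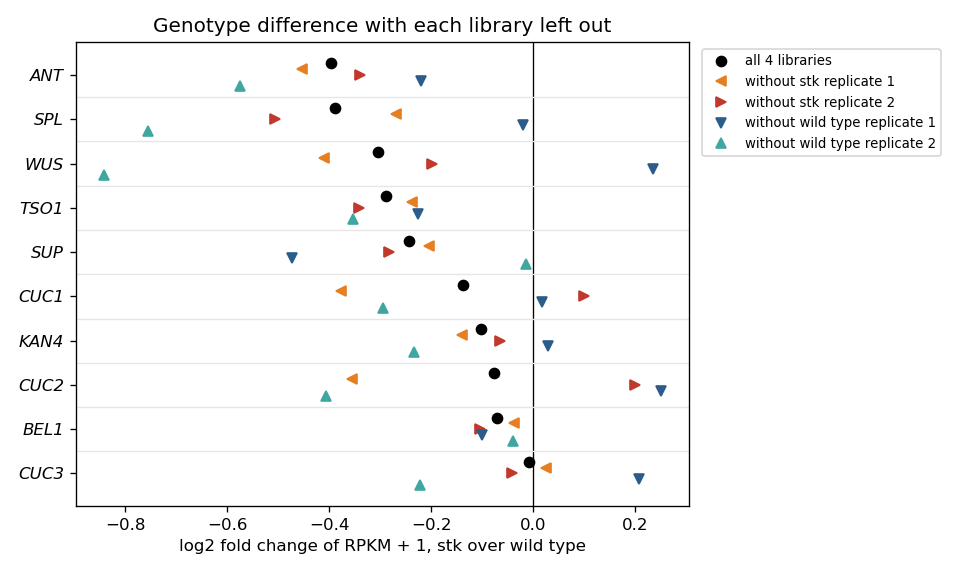
Log2 fold change of RPKM + 1, stk over wild type (horizontal), for the 10 loci with all 4 libraries (black circles) and with each library left out (triangles). Without wild type replicate 1, 5 of the 10 loci lie right of 0, WUS at 0.23 and CUC2 at 0.25 among them.

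Related genes, from lists made by family and pathway, were described in the same way. In limma, none of these loci had an adjusted p under 0.05, against 0% of all loci tested. An unadjusted p of at most 0.05 was found for 5, against 9.18% of all loci tested. These were 1 of 2 tested in the family of *ANT*, 1 of 11 in the BEL1-like family and 1 of 4 other boundary genes. In the wider ovule and integument list, 1 lower and 1 higher gene of 26 had such a p. The 3 KANADI, 4 WOX, 4 CXC and 3 *WUS* circuit genes tested had 0. In the family of *ANT*, 2 of 7 genes were expressed highly enough to be tested. *AIL6* (AT5G10510) had 3.31 and 2.70 RPKM in *stk* libraries, against 4.56 and 4.18 RPKM in wild-type libraries (log2 fold change -0.43, standard error 0.15, unadjusted p = 0.0315, adjusted p = 0.514 from limma). *AIL5* (AT5G57390) had 2.90 and 3.11 RPKM in *stk* libraries, against 4.81 and 3.54 RPKM in wild-type libraries (unadjusted p = 0.0826, adjusted p = 0.585 from limma). For both genes the *stk* values lay below the wild-type values without overlap, as for 26.8% of all loci tested.

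Of the BEL1-like family, 11 of 12 genes were tested, with a median log2 fold change of -0.07, and 1 had an unadjusted p of at most 0.05. This was *BLH4* (AT2G23760), with 6.88 and 6.70 RPKM in *stk* libraries against 9.46 and 9.27 RPKM in wild-type libraries (unadjusted p = 0.0218, adjusted p = 0.514 from limma). *ATH1* had 7.72 and 7.15 RPKM in *stk* libraries against 11.2 and 8.91 RPKM in wild-type libraries, and *BLH5* 1.44 and 0.773 RPKM against 1.35 and 1.30 RPKM. Of the 11 genes, 7 overlapped between genotypes, while 3 had lower and 1 had higher values in both *stk* libraries than in both wild-type libraries, against 26.8% and 16.3% of all loci tested.

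Among the relatives of *KAN4*, *KAN2* had 9.25 and 9.90 RPKM in *stk* libraries against 11.9 and 11.5 RPKM in wild-type libraries, *KAN1* 6.68 and 7.45 RPKM against 8.24 and 8.33 RPKM, and *KAN3* 5.19 and 3.97 RPKM against 3.50 and 4.93 RPKM. None of the 3 had an unadjusted p of at most 0.05. Of the WOX family around *WUS*, 4 of 12 genes were tested besides *WUS* and none had such a p. *WOX1* had the smallest (unadjusted p = 0.0797, adjusted p = 0.583 from limma), followed by *WOX9* and *WOX4*. In the circuit that controls *WUS* in meristems, *CLV1* had 14.2 and 14.1 RPKM in *stk* libraries against 14.9 and 13.1 RPKM in wild-type libraries, and *CLV2* and *AG* overlapped likewise. *CLV3* is listed at 0 in all 4 libraries. Of the TSO1-like CXC proteins, 3 of 4 had non-overlapping, lower values in *stk* (*SOL1*, *SOL2* and *TCX6*; 26.8% of all loci tested), with unadjusted p between 0.0721 and 0.251 and adjusted p between 0.576 and 0.722 from limma.

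In the wider list of ovule and integument genes, 26 of 27 were tested, with a median log2 fold change of -0.15. The groups did not overlap, with *stk* lower, for 12 of the 26, against 26.8% of all loci tested, and, with *stk* higher, for 1, against 16.3%. Wild type replicate 1 was highest for 20 of the 26, against 44.1% of all loci tested. An unadjusted p of at most 0.05 was found for *MP* (AT1G19850), an auxin response factor, with 32.8 and 34.5 RPKM in *stk* libraries against 48.8 and 40.8 RPKM in wild-type libraries (unadjusted p = 0.0420, adjusted p = 0.527 from limma). It was also found for *UCN* (AT1G51170), a kinase that restrains integument growth, with 27.0 and 26.9 RPKM in *stk* libraries against 20.04 and 22.1 RPKM in wild-type libraries (unadjusted p = 0.0488, adjusted p = 0.539 from limma). The third-ranked gene was *ERL2*, a receptor kinase, with an unadjusted p of 0.0723. *INO*, which marks the outer integument, had 8.05 and 7.22 RPKM in *stk* libraries against 8.24 and 5.86 RPKM in wild-type libraries.

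Of the boundary genes other than *CUC1*, *CUC2* and *CUC3*, 4 of 8 were tested, and *BOP2* (AT2G41370) had the smallest p among all the related genes. It had 3.47 and 3.65 RPKM in *stk* libraries, against 7.33 and 6.02 RPKM in wild-type libraries (log2 fold change -0.75, standard error 0.15, unadjusted p = 0.00313, adjusted p = 0.410 from limma). *BOP2* encodes a BTB-ankyrin protein of organ boundaries. *LOB*, another boundary gene, had 1.91 and 1.49 RPKM in *stk* libraries against 3.83 and 2.19 RPKM in wild-type libraries (unadjusted p = 0.0598), and *LOF1* overlapped between genotypes. No tested gene of these pathway lists had group means at least 2-fold apart. Below the limit for testing, means at least 2-fold apart without overlap were seen for *PLT1*, *PLT2*, *WOX8*, *WOX11*, *DRN* and *KNU*, and none of these exceeded 0.237 RPKM.

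STK belongs to the MADS-domain factors, which are known to bind the CArG box. No perfect match to this motif, on either strand since it is its own reverse complement in form, was found in the 1000 bases before the start codon of any of the 10 loci, and 7.6% of 27443 loci had one. The absence of the letters from this window says nothing about binding. The study's search in its own candidate genes was wider, as it took in more distant sequence and the gene itself and allowed a mismatched base.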

How the data were processed

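Total RNA of 2 *stk* and 2 wild-type samples was made into TruSeq libraries and sequenced as single 50 bp reads. According to the study's methods, reads were trimmed, mapped to TAIR10 in CLC Genomics Workbench with few mismatches allowed, and reads fitting several places were shared among them. The labels also name FastQC. The authors deposited RPKM values for 35182 gene models; no reads or counts were used here, and tables of enriched GO terms were left out. RPKM values were summed over the models of each of 27206 loci. For the 19044 loci with a mean of at least 1 RPKM, log2(RPKM + 1) was compared between genotypes with limma 3.58.1 in R 4.3.3 (2 libraries each, no block), with Benjamini-Hochberg adjustment across all genes tested. On this scale the change of weakly expressed loci is understated.

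Library sizes of 30564186 and 33673018 reads (*stk*) and 16965995 and 21075041 reads (wild type) were recovered from the steps of RPKM values at single-model loci, where 94.9% to 95.8% of low values came out whole within 0.02 of a read. Read numbers of single loci serve only for exact 95% intervals, which cover counting error alone. Positions of gene models are those of the files (TAIR10). Sequences and exons come from TAIR10.1, which shares these coordinates but whose models often have other ends. The fit and Baggerley's test, rewritten here with summed RPKM as library total and a normal distribution, were tested on simulated data. Alternatives covered normalization, pseudocount, filters, limma with trend, a replicate block, the most abundant model, removal of the exon-length trend and leaving out each library. All 10 members are named, and of each other list the loci with the 3 smallest unadjusted p and those at least 2-fold apart without overlap. *INO* was named outside this rule, after its values were seen. The members and lists were chosen with earlier results of these data known.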

Additional observations from a re-analysis of the deposited data

How the results depend on the processing

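Under 14 alternatives, none of the 10 loci reached an adjusted p under 0.05 (limma, Benjamini-Hochberg), and 129 of 139 fold changes kept their direction (*CUC1* was not tested with at least 1 RPKM asked of every library). Part of this count was fixed in advance. The filters, limma with trend and both replicate blocks cannot change a fold change, nor can the most abundant model for the 9 loci with 1 model. *BEL1* turned to 0.036 (log2) with the exon-length trend removed and *CUC3* to 0.018 with median scaling. Moves by over 1.5 times without a turn were to -0.18 for *TSO1* and -0.023 for *CUC3* without the exon-length trend, to -0.046 for *BEL1* with median scaling, to -0.28 for *CUC1* and -0.049 for *CUC3* with quantile normalization, and to -0.38 for *SUP*, -0.28 for *CUC1* and -0.0023 for *CUC3* with pseudocount 0.1. Without 1 library, fold changes turned at most to 0.029 (*KAN4*), 0.23 (*WUS*), 0.10 (*CUC1*), 0.25 (*CUC2*) and 0.21 (*CUC3*), from lowest values of -0.23, -0.84, -0.38, -0.41 and -0.22. The cause was not tested. *ANT* alone had an unadjusted p of at most 0.05 with quantile normalization, median scaling and the replicate block (1 of the 10 loci each, limma). Of the 19044 loci tested, 2438, 2313 and 2067 had such a p under these settings, in the same order. Leaving out 1 library gave 0 to 3 such loci among the 10. It also gave 5 to 10 loci with a lower mean in *stk* and a median of -0.32 to -0.0012. As these fits have 1 library in a genotype, no weight is put on their counts of p. With all 4 libraries kept, *STK* passed the adjusted threshold with quantile normalization (-2.20), median scaling (-2.16), limma with trend (-2.19), removal of the exon-length trend (-2.13) and the crossed block (-2.19). Under the other alternatives with all 4 libraries, its adjusted p lay between 0.0551 (at least 1 RPKM in every library) and 0.416 (replicate block) in limma. Its fold change lay between -2.23 and -2.15 without 1 library. Over all loci, 5 had an adjusted p under 0.05 with quantile normalization, 5 with median scaling, 1 with trend, 4 without the exon-length trend, and 0 to 1575 without 1 library (336 without *stk* replicate 1 and 1575 without *stk* replicate 2). The unadjusted calls were 1077 higher and 672 lower, and 1321 higher and 1248 lower without the exon-length trend.

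Same-numbered libraries did not deviate together (correlation -0.13 over loci). With 2 libraries of each genotype, this cannot decide whether the numbers pair them. The replicate block left 0 loci with an adjusted p under 0.05 (2067 unadjusted). With crossed numbers, chosen after seeing the data, there were 921, of which 0 are among the 10 loci. In wild type, 40 (*CUC1*), 68 (*SUP*) and 87 (*KAN4*) reads limit what can be seen.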
